A study of Mus musculus with 6 samples.

Results

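Platelets take up, store and break down serotonin but make little of it, and 6 mouse genes of that route were followed in megakaryocytes, the cells that shed platelets. They were Slc6a4 (uptake), Slc18a2 (storage), Tph1 (synthesis), Maoa and Maob (breakdown) and Htr2a (response). The 6 genes were selected on the comparison of p45-/- with WT cultures in these same arrays, so their differences between the groups are given as a description, without a test. They were found through the RefSeq accession of each array probe, and 8 probes read them, out of 41174 probes and 18217 gene symbols on the array. After a filter on dim probes, 18211 genes were compared across the array. Of these, 12948 had a symbol, and the rest were probe accessions without a symbol, each counted as a gene. Of the 6 serotonin genes, 5 passed that filter through 6 of their 8 probes. Htr2a did not pass.

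The study measured RNA of primary megakaryocytes grown from fetal livers of C57BL/6 mice at embryonic day 13.5, on 6 Agilent arrays with 1 colour. Cultures labelled p45-/- carried no functional p45, which is encoded by Nfe2 and pairs with a small Maf protein to form the transcription factor NF-E2, and those labelled WT were wild type. There were 3 cultures of each genotype, from 3 independent experiments per the series' design. The labels' source field names cultured megakaryocytes, while their extraction protocol speaks of RNA from whole embryos. Culture conditions, and the number of embryos behind a culture, are not given in the sources used here.

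Serotonin is made from tryptophan by tryptophan hydroxylase, outside the brain mostly by TPH1 in enterochromaffin cells of the gut. Platelets collect it from plasma through the serotonin transporter SERT, which Slc6a4 encodes. The vesicular monoamine transporter VMAT2, which Slc18a2 encodes, then loads it into dense granules in exchange for protons, using the gradient set up by the vacuolar proton pump. Serotonin left in the cytosol is deaminated by the monoamine oxidases MAO-A and MAO-B of the outer mitochondrial membrane, and released serotonin acts back on platelets through HTR2A, a receptor coupled to Gq.

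RefSeq start-site windows of GRCm38.p6, which run from 250 bases before to 50 bases after a gene's start, were at hand for 5 of the 6 genes, in 6 windows. Those of Slc6a4 and Slc18a2 are shown because these genes act one after the other on the same molecule and stood at opposite ends of the differences below. Both read 5′ to 3′ on the plus strand, at chr11:76998347-76998646 and chr19:59260628-59260927, and capitals mark a match to a GATA word on the minus strand.
Slc6a4: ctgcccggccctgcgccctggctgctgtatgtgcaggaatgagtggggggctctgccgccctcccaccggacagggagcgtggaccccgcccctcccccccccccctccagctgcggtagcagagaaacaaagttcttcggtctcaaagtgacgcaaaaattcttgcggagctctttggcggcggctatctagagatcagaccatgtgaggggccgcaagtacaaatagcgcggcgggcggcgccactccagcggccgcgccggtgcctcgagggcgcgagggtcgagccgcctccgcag
Slc18a2: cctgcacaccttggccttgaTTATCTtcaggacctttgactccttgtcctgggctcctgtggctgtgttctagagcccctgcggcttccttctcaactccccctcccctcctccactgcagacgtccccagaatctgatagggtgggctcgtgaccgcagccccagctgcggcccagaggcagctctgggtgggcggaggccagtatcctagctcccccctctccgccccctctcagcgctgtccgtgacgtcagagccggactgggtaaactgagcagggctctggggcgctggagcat
The window of Slc6a4 had a GC content of 67.7% and that of Slc18a2 64.0%. Searched on both strands, TGAGTCA, the core word bound by NF-E2 and AP-1 factors, was in none of the 6 windows, against 5.20% of the 32851 windows of the RefSeq table. Of the 2 words searched for the GATA family of factors, AGATAA was in the Slc18a2 window alone, at position -230 from the start, against 11.2% of all windows. The other, TGATAA, was in the Maoa window alone, at position -238, against 9.05%. The word GGAAGT, which ETS factors bind, was in none, against 23.8%. A match is a description of these letters and no binding site, and a missing match says nothing about the factor.

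The arrays differed in brightness and in their correlation with each other, which bears on all 6 genes. The processed signal had its 75th percentile at 135 to 589 on the p45-/- arrays and 339 to 583 on the WT arrays, with the lowest value on p45-/- array 1. Across genes, which are not independent replicates, that array correlated with the others at 0.782 to 0.884, and the others among themselves at 0.941 to 0.984. Values without it are therefore given for each of the serotonin genes compared and for the lists around them. Why p45-/- array 1 stood apart was not tested. Nfe2 itself read 6.05 ± 0.71 (SD, n = 3) in WT against 5.88 ± 0.88 (SD, n = 3) in p45-/-, as log2 levels. Whether its probe lies within the deleted stretch is unknown, so it does not check the genotype, and p45-/- below means the arrays so labelled. All 10 megakaryocyte markers listed, such as Itga2b and Pf4, were well above background on all 6 arrays. Levels below are log2 of the processed signal relative to the 75th percentile of the same array, so 0 is that percentile, and differences are p45-/- minus WT.

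The serotonin transporter Slc6a4 was far lower in p45-/- than in WT on every array. The processed signal of its probe, A_51_P496253, was 2005, 34766 and 31146 on arrays 1, 2 and 3 of WT, but 16.4, 173 and 135 on those of p45-/-. As log2 levels these were -3.05, -1.23 and -2.13 in p45-/- and 2.56, 5.90 and 5.76 in WT. The groups did not overlap, the highest p45-/- array lay below the lowest WT array, and within each group array 1 was the lowest. The probe was well above background on all 6 arrays, so the p45-/- values are measured levels and not bounds, although p45-/- array 1 stood only 1.91 times above the lowest signal called well above background there.

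The mean level of Slc6a4 was 4.74 ± 1.89 (SD, n = 3) in WT against -2.14 ± 0.91 (SD, n = 3) in p45-/-, with a difference of -6.88 (SE 0.96, 95% interval -9.17 to -4.58), which is 117-fold. Same-numbered arrays differed by -5.61, -7.13 and -7.88, that is 48.9-fold, 139.9-fold and 236-fold, so the size varied between pairs while the direction was shared. Among the 18211 genes compared it was the lowest difference, at rank 1, and it kept rank 1 in every alternative fit over all genes. Without p45-/- array 1 the difference was -6.42, and without both replicate 1 arrays -7.51. In bulk RNA, fewer cells that carry a transcript and less of it per cell cannot be told apart, here and in all values below.

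**Figure D1:**
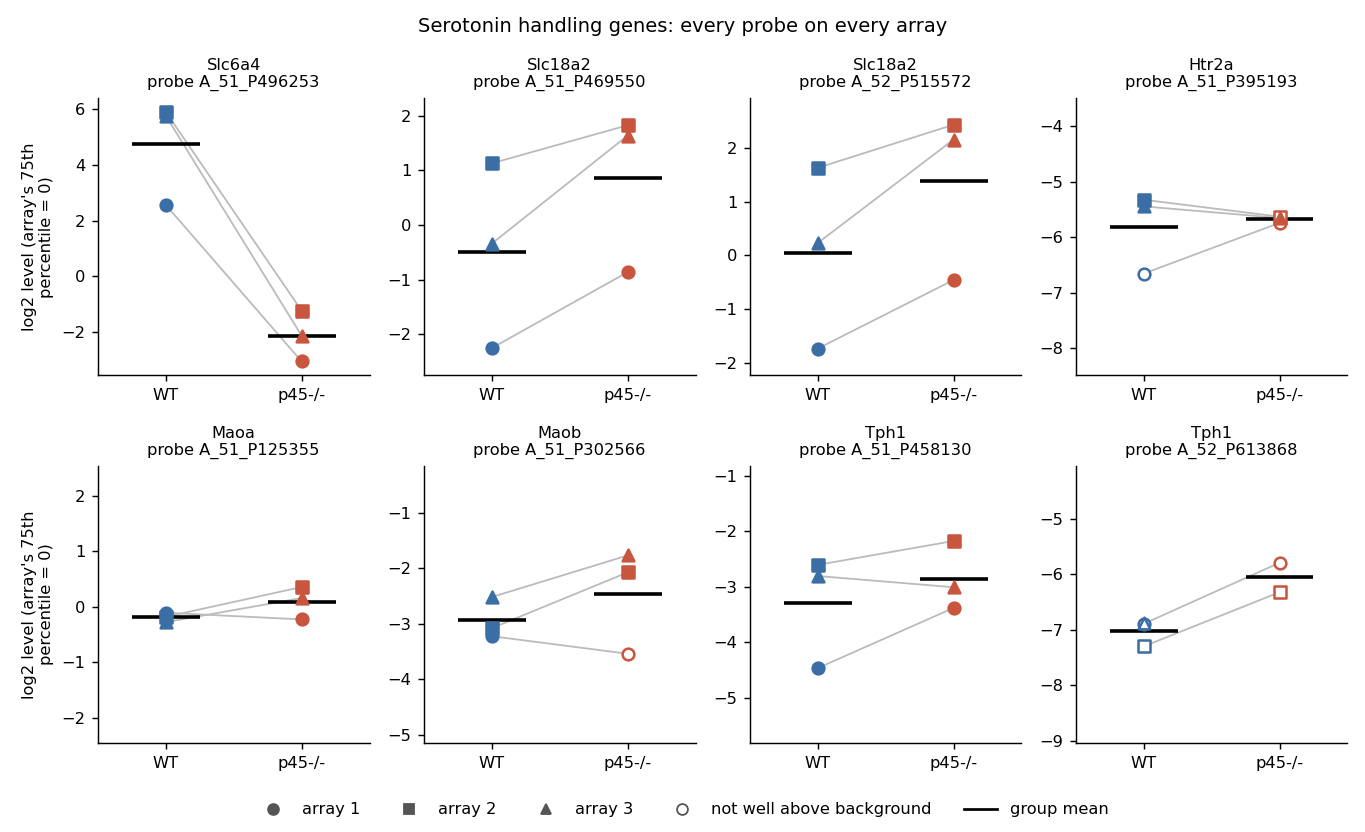
Log2 level of each of the 8 probes on every array, with the 75th percentile of the array at 0. Symbols give the array number, grey lines join same-numbered arrays, black bars are group means, open symbols were not well above background, and each panel has its own vertical range. Slc6a4 lies at 2.56 to 5.90 in WT and at -3.05 to -1.23 in p45-/-, while the other tested probes have overlapping groups.

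Slc18a2, the vesicular transporter that acts after Slc6a4, was read by 2 probes, and both had overlapping groups. The brighter probe, A_52_P515572, read -1.74, 1.63 and 0.23 on the WT arrays 1, 2 and 3, against -0.46, 2.44 and 2.16 on the p45-/- arrays. Array 1 was the lowest in both groups, and its level minus the mean of the others was -2.76 in p45-/- and -2.67 in WT. This spread within the groups exceeded the difference between them.

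Group means of that Slc18a2 probe were 0.04 ± 1.69 (SD, n = 3) in WT against 1.38 ± 1.60 (SD, n = 3) in p45-/-, with a difference of 1.34 (SE 1.07, 95% interval -1.20 to 3.88), a 2.53-fold higher mean in p45-/-. Within pairs 1, 2 and 3 it was 1.28, 0.80 and 1.93, higher in p45-/- each time. With the replicate number as a block, the 95% interval was 0.55 to 2.13 and no longer included 0, which is a description like the rest. The other probe, A_51_P469550, read -0.86, 1.83 and 1.64 in p45-/- and -2.25, 1.13 and -0.34 in WT. Its difference was 1.36 (SE 1.04, 95% interval -1.12 to 3.83), with pairs at 1.39, 0.70 and 1.98, so the 2 probes gave nearly the same values. Without p45-/- array 1 the difference of Slc18a2 was 2.26 and the groups no longer overlapped.

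Slc6a4 and Slc18a2 thus lay on opposite sides of 0 in every pair. The log2 ratio of Slc6a4 to Slc18a2, taken within each array, which removes the scaling between arrays, moved by -8.21 from WT to p45-/-, or by -8.68 without p45-/- array 1. Within pairs 1, 2 and 3 it moved by -6.89, -7.93 and -9.82. A ratio within an array shows unequal change and does not say which gene differed.

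**Figure D2:**
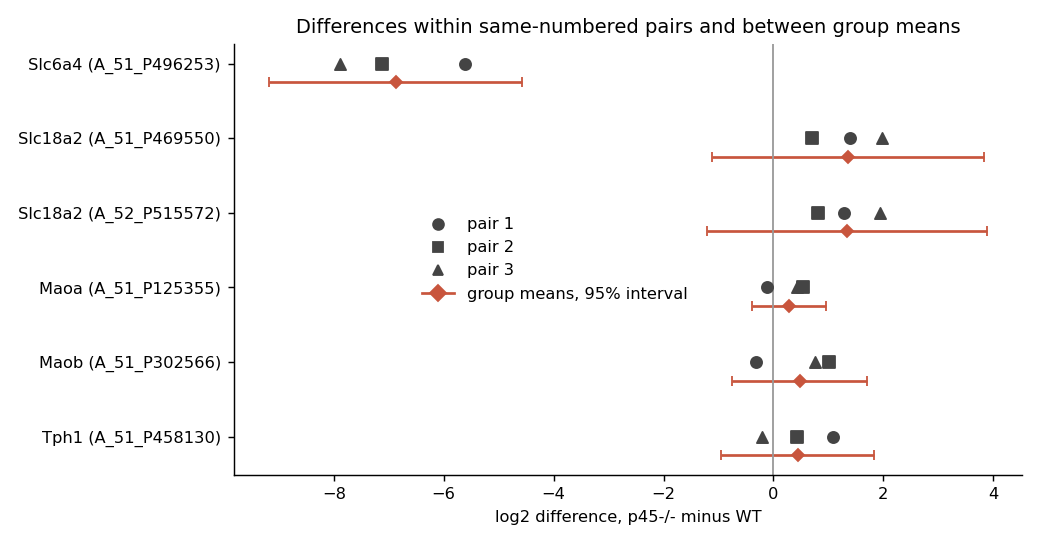
Log2 difference, p45-/- minus WT, for the 6 probes that passed the filter. Dark symbols are the differences within same-numbered pairs, and diamonds with bars are the differences of group means with 95% intervals from the fit over all probes without the replicate block. The interval of Slc6a4 runs from -9.17 to -4.58, and those of the other probes include 0; with the block, both Slc18a2 intervals lie above 0.

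Tph1, the rate-limiting enzyme of serotonin synthesis outside the brain, was measurable but dim. Its probe A_51_P458130 gave processed signals of 15.4, 96.1 and 82.4 on the WT arrays 1, 2 and 3, against 13.02, 90.3 and 73.3 on the p45-/- arrays, well above background on all 6. On WT array 1 it was only 1.28 times the lowest signal called well above background there, and on p45-/- array 1 only 1.52 times. The log2 levels were -3.38, -2.17 and -3.01 in p45-/- and -4.46, -2.60 and -2.80 in WT. The groups overlapped, and array 1 was again the lowest of each.

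The Tph1 levels of that probe averaged -3.29 ± 1.02 (SD, n = 3) in WT against -2.85 ± 0.62 (SD, n = 3) in p45-/-, with a difference of 0.44 (SE 0.59, 95% interval -0.96 to 1.83). Pairs stood at 1.09, 0.43 and -0.20, and the difference was 0.70 without p45-/- array 1. It was -0.15 without WT array 1, -0.07 with median scaling and -0.02 with quantile normalization, so its sign was not stable. The other probe, A_52_P613868, gave signals of 2.86, 3.71 and 4.92 on the WT arrays and of 2.45 and 5.09 on arrays 1 and 2 of p45-/-, not well above background on any of these. On p45-/- array 3 it read 223 in a spot flagged as an outlier, which was set to missing. No fold is given for that probe.

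Maoa, which deaminates serotonin, was close to the 75th percentile on all arrays and varied little. Its probe, A_51_P125355, read -0.11, -0.19 and -0.28 on the WT arrays 1, 2 and 3, against -0.23, 0.35 and 0.15 on the p45-/- arrays. The p45-/- arrays 2 and 3 were above all WT arrays, while p45-/- array 1 lay among them. The p45-/- mean was 0.09 ± 0.30 (SD, n = 3), the WT mean -0.19 ± 0.085 (SD, n = 3), and the difference was 0.28 (SE 0.28, 95% interval -0.39 to 0.96). Pairs 1, 2 and 3 differed by -0.12, 0.54 and 0.43, and without p45-/- array 1 the difference was 0.45. The sign of Maoa rested on the scaling: with each array's median in place of its 75th percentile, which moves the median of all genes to -0.56, it was -0.23.

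Maob, the monoamine oxidase known from human platelets, had overlapping groups too. Its probe, A_51_P302566, read -3.23, -3.08 and -2.52 on the WT arrays 1, 2 and 3, against -3.54, -2.08 and -1.77 on the p45-/- arrays. On p45-/- array 1 it was not well above background, and that array was the lowest of all 6, while p45-/- arrays 2 and 3 were the highest. The p45-/- mean was -2.46 ± 0.95 (SD, n = 3), the WT mean -2.94 ± 0.37 (SD, n = 3), and the difference was 0.48 (SE 0.52, 95% interval -0.75 to 1.71). Pairs differed by -0.32, 1.00 and 0.75, and without p45-/- array 1 the difference was 1.02. With median scaling it was -0.03 and with quantile normalization -0.05. The log2 ratio of Maob to Maoa within an array moved by 0.20 from WT to p45-/-, or by 0.57 without p45-/- array 1, with pairs at -0.19, 0.47 and 0.32, so the pairs did not share a direction.

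Htr2a, the serotonin receptor of platelets, was at the edge of detection. Its probe, A_51_P395193, gave processed signals of 3.37, 14.6 and 13.2 on the WT arrays 1, 2 and 3, against 2.53, 8.23 and 11.7 on the p45-/- arrays. The software called it well above background on 1 of 3 p45-/- arrays and 2 of 3 WT arrays, with at most 1.28 times the lowest signal called so. The log2 levels spanned -5.74 to -5.63 in p45-/- and -6.65 to -5.32 in WT and overlapped. No difference in Htr2a was detectable at these signals.

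Set beside the whole array, 1 of the 5 serotonin genes compared, Slc6a4, had groups that did not overlap with p45-/- lower, as for 8.44% of all genes, and no serotonin gene was without overlap in the other direction, as for 4.78%. Slc6a4 was lower in all 3 pairs, as were 23.6% of all genes, and Slc18a2 was higher in all 3 pairs, as were 23.3%. The median of all genes was -0.048, with 5% of genes below -0.88 and 5% above 1.88. Slc18a2 stood at percentile 90.1 of the differences, Maob at 73.9, Tph1 at 72.7 and Maoa at 67.7. Since the genes were selected on this comparison, nothing is read from these counts.

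Without p45-/- array 1, the groups of 4 of the 5 genes did not overlap. Slc6a4 was then lower, as were 11.6% of all genes without overlap, and Slc18a2, Maoa and Maob were higher, as were 15.8%. Tph1 still overlapped. In the limma fit over all genes, 0 genes passed an adjusted p of 0.05, which is 0% of those tested, with 606 lower and 478 higher at an unadjusted p under 0.05. With the replicate number as a block, limma called 5 genes, 0.0275% of those tested, all lower in p45-/-. Slc6a4 was among them, which for a gene selected on this comparison is a description, and it was no longer among those called with the percentile over spots or with quantile normalization.

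**Figure D3:**
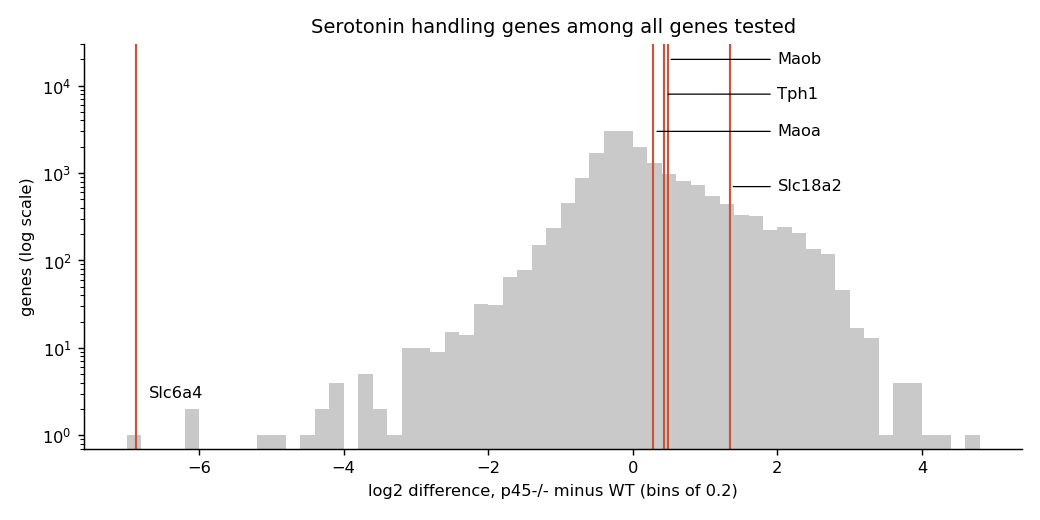
Number of genes, on a log scale, in bins of the log2 difference, p45-/- minus WT, over all 18211 genes tested. Red lines mark the 5 serotonin genes that passed the filter. Slc6a4, at -6.88, is the leftmost gene of the array, and Maoa, Tph1, Maob and Slc18a2 lie at 0.28 to 1.34.

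Other cell types that handle serotonin could be present in fetal liver cultures, and their markers were read as whole lists. Mast cells and basophils, which also make and store amines, were read by 10 tested markers, 7 lower and 3 higher in p45-/-, with a median difference of -0.73, or -0.25 without p45-/- array 1 and -0.02 with normexp background correction. Their summed level, in units of the 75th percentile, with Mcpt1 and Mcpt4, which were too dim to test, was 5.23 to 19.7 in p45-/- and 13.6 to 33.3 in WT. Mcpt8, a basophil protease, had the lowest difference of these, at -1.65, and Fcer1a, a chain of the IgE receptor, the highest, at 0.78. Markers of serotonergic neurons and enterochromaffin cells summed to 3.01 to 4.46 in p45-/- and 2.54 to 4.11 in WT, and the defining genes Tph2, Lmx1b and Nkx2-2 were well above background on no array. Of the 4 tested, Chga had the highest difference, at 1.91, or 0.58 without p45-/- array 1, and was well above background on 1 WT array. Gch1 had the lowest, at -0.65, or -0.80 without that array. The median of the 4 was 1.24, or 0.52 without p45-/- array 1.

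Erythroid markers were higher in p45-/- for 9 of 10 tested, with a median difference of 2.09, both with and without p45-/- array 1. Their summed level was 998, 254 and 132 on p45-/- arrays 1, 2 and 3, against 92.7 to 364 in WT. Without p45-/- array 1 the sums lay within the WT range. Hba-a1 was the brightest of these markers on every array and weighs most in the sums. The list's median log2 level was 0.35, 0.47 and -0.17 in p45-/-, against -1.27, -1.76 and -1.76 in WT. By that median every p45-/- array stood above every WT array. By single genes, 6 markers were higher with separate groups, beside 4.78% of all genes. Without p45-/- array 1 it was again 6, beside 15.8%. Alas2, the first enzyme of haem synthesis in red cells, differed by 4.36, Trim10 by 3.22, the embryonic globin Hbb-bh1 by 2.96 and the erythroid regulator Klf1 by 2.32, without overlap. All 7 tested hepatoblast markers were higher, or 6 of 7 with median scaling, with a median of 1.19, or 1.497 without p45-/- array 1. In pair 1 their median was -0.17, and it was 1.36 and 1.87 in the other pairs. Summed levels of the hepatoblast list were 47.4 to 159 against 39.3 to 67.0. Macrophage and neutrophil markers had a median of -0.12, which was 0.02 with quantile normalization and -0.11 without p45-/- array 1, and summed to 516 to 965 against 641 to 1094, and stromal and endothelial markers had a median of 0.40, which was -0.11 with median scaling and 0.83 without p45-/- array 1, and summed to 29.2 to 56.3 against 50.04 to 58.2. No marker passed the test, and the part of these cell types in the values of Slc18a2, Maoa, Maob and Tph1 was not tested.

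The low arrays numbered 1 of Slc6a4, Slc18a2 and Tph1 had a counterpart in the megakaryocyte markers. Their summed level was 968, 1734 and 1621 on the WT arrays 1, 2 and 3, against 812, 1715 and 1256 on the p45-/- arrays, again lowest on array 1 of each group. The median difference of the 10 markers was -0.40, or 0.05 without p45-/- array 1, from -1.32 for Gp5, a subunit of the von Willebrand factor receptor, to 0.08 for Pf4, platelet factor 4. The part of these markers in the values of Slc6a4, Slc18a2 and Tph1 was not tested.

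Genes around the 6 in the same route were read from 8 lists with 117 entries in all, and 92 genes of these lists were tested. None passed the limma test, where the smallest adjusted p was 0.380, or 0.0808 with the replicate block, and at an unadjusted p under 0.05 without the block there were 6 lower and 1 higher. Of the 92, 68 were lower and 24 higher in p45-/-, with a median of -0.26 beside -0.048 over all genes. The groups did not overlap for 12 lower genes, 13% of those tested, beside 8.44% of all genes, and for 2 higher ones, 2.17%, beside 4.78%. The number of lower genes ran from 52 to 83 of the 92 under the other scalings. The 52 were 56.5%, beside 36.6% of all genes, with the percentile over probes detected on all arrays. The 83 were 90.2%, beside 74.8% of all genes, with median scaling. Without p45-/- array 1, 47 of the 92 were lower and 45 higher, and the median was -0.021 beside 0.069 over all genes. The groups then did not overlap for 13 lower genes, 14.1%, beside 11.6% of all genes, and for 14 higher ones, 15.2%, beside 15.8%.

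**Figure D4:**
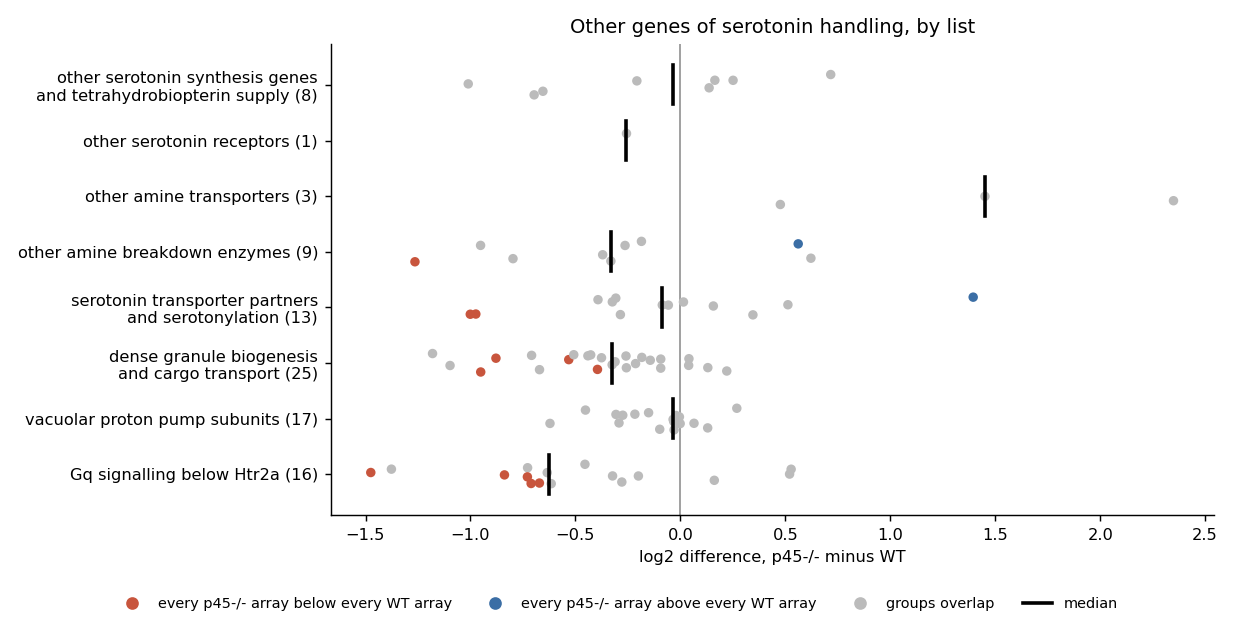
Log2 difference, p45-/- minus WT, of each tested gene in the 8 lists around the serotonin genes, with the number tested in brackets and the median as a black bar. Red points had every p45-/- array below every WT array, blue points the reverse, and grey points overlap. The medians run from -0.62 for Gq signalling to 1.45 for the 3 other amine transporters.

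Around Tph1, the other genes of serotonin synthesis and of its cofactor tetrahydrobiopterin had a median of -0.035, 4 lower and 4 higher of 8 tested, all with overlapping groups, and a median of 0.23 without p45-/- array 1. Ddc, the decarboxylase that turns 5-hydroxytryptophan into serotonin, differed by 0.72 (SE 0.74). Gch1, which starts cofactor synthesis, differed by -0.65 (SE 0.54), and Qdpr, which recycles the cofactor, by -0.21 (SE 0.44). Tph2, the brain form of the hydroxylase, was well above background on no array.

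Around Slc6a4, 3 of the 8 other amine transporters were bright enough to test, and all 3 were higher in p45-/- with overlapping groups, although 1 of them was lower with median scaling and with quantile normalization. Their median of 1.45 was 1.21 without p45-/- array 1, and 2 of the 3 did not overlap, beside 15.8% of all genes. Slc18a1, the VMAT of endocrine cells, differed by 0.48 (SE 0.38). Of the transporters that can also carry serotonin at low affinity, Slc22a3 was well above background on no array and Slc29a4 on 1 p45-/- array only.

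Proteins that bind or traffic the serotonin transporter, and enzymes that couple serotonin to proteins, had 8 lower and 5 higher genes of 13 and a median of -0.086, which was 0.12 with the percentile taken over probes detected on all arrays and -0.041 without p45-/- array 1. Itgb3, the integrin beta-3 chain that associates with the transporter on platelets, differed by -0.29 (SE 0.39), with overlapping groups at 7.17 to 8.18 in p45-/- and 7.57 to 8.34 in WT. Stx1a, a syntaxin that binds the transporter, was higher in p45-/- on every array, at -2.53, -1.51 and -1.99 against -3.53, -3.13 and -3.55, a difference of 1.39 (SE 0.36, limma adjusted p = 0.525), or 1.65 without p45-/- array 1. Scamp2, a membrane trafficking protein, differed by -0.97 (SE 0.32) and F13a1, the transglutaminase chain of factor XIII, by -1.001 (SE 0.40), both without overlap, while Tgm2, another transglutaminase, differed by 0.51 (SE 0.62). None of these passed the test. Rab4a was not matched to a probe.

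Around Slc18a2, the dense granule genes leaned lower, 21 of 25, with a median of -0.33 and medians of -0.93, -0.070 and -0.16 in pairs 1, 2 and 3. Without p45-/- array 1, 14 were lower and 11 higher, with a median of -0.14. On all arrays, 4 of the 25 had groups without overlap, all lower, beside 8.44% of all genes. These were Lyst at -0.95 and Hps3 at -0.53, which act in the sorting of lysosome-related organelles, Cd63 at -0.88, a granule membrane tetraspanin, and Dtnbp1 at -0.39, a subunit of the BLOC-1 complex. Abcc4, a transporter linked to nucleotide storage in these granules, differed by -1.18 (SE 0.53) and Rab27b, which docks them, by -1.10 (SE 0.80), both with overlapping groups. Slc35d3 at -0.26, Hps6 at -0.33 and Slc17a9, the vesicular nucleotide transporter, at 0.04 differed by less than their SEs.

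The vacuolar proton pump, whose gradient drives Slc18a2, had 14 lower and 3 higher of 17 subunits, with a median of -0.035 beside -0.048 over all genes and no gene without overlap. Pair 1 had a median of -0.93, and pairs 2 and 3 had 0.42 and 0.13. Without p45-/- array 1 the balance turned to 3 lower and 14 higher, with a median of 0.21, and with quantile normalization it was 4 lower and 13 higher. Tcirg1, a membrane subunit, differed by -0.27 (SE 0.51) and Atp6v1a, the catalytic subunit, by -0.45 (SE 0.40).

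Around Maoa and Maob, the other enzymes of amine breakdown were lower for 7 of 9 and had a median of -0.33, which was -0.19 without p45-/- array 1. Aldh2, the mitochondrial aldehyde dehydrogenase that can take on the aldehyde left by the monoamine oxidases, was lower in p45-/- on every array, at 2.22, 1.95 and 2.34 against 3.20, 3.85 and 3.25. Its difference was -1.26 (SE 0.31, limma adjusted p = 0.505), with pairs at -0.98, -1.90 and -0.91 and a value of -1.29 without p45-/- array 1. Sult1a1, a sulfotransferase, was higher without overlap, at 0.56 (SE 0.33). None of these passed the test.

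Around Htr2a, the other serotonin receptors were mostly not measurable. Of 11 on the array, 7 were well above background on no array, Htr1b and Htr7 among them, and 1, Htr2b, a receptor coupled to Gq like Htr2a, could be tested. It differed by -0.26 (SE 0.83), with pairs at -2.22, 0.95 and 0.50, and by -0.28 without p45-/- array 1.

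Signalling genes below Gq, which serve many platelet receptors besides Htr2a, had a median of -0.62, with 13 of 16 lower. The groups did not overlap for 5 of them, all lower, beside 8.44% of all genes, or for 2 with the percentile over probes detected on all arrays, beside 5.25%. Prkcd, protein kinase C delta, read 1.63, 2.12 and 1.78 in p45-/- and 3.31, 3.53 and 3.12 in WT, a difference of -1.47 (SE 0.29, limma adjusted p = 0.380), or -1.37 without p45-/- array 1. The other 4 were Itpr2 at -0.84, Plcb3 at -0.73, Grk6 at -0.71 and Plcb2, a phospholipase C beta of blood cells, at -0.67. Gnaq, the Gq alpha subunit, differed by -0.73 (SE 0.40) and Rgs18, a regulator of G proteins in platelets, by -1.38 (SE 0.66), both with overlapping groups. All 3 pairs had negative medians, at -0.91, -0.60 and -0.23, and without p45-/- array 1 the median was -0.25, with 11 lower and 5 higher.

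The genes whose levels followed each serotonin gene most closely over the 6 arrays were found by the root mean square difference between their deviations from the WT mean, in log2 units. For Slc6a4 the nearest were Gp6, the platelet collagen receptor, at 0.70, Ttll11, which belongs to a family of tubulin-modifying enzymes, at 0.96, A930003A15Rik at 1.52, Clec1b, which encodes the receptor CLEC-2, at 1.70, and Fam131a at 2.05, while the median over genes was 4.92. Gp6 differed by -6.09 between the groups, Ttll11, which was well above background on 2 of 3 p45-/- arrays, by -6.19, Clec1b by -4.53 and Fam131a by -4.07. A930003A15Rik was well above background on no p45-/- array, and its distance there rests on background.

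**Figure D5:**
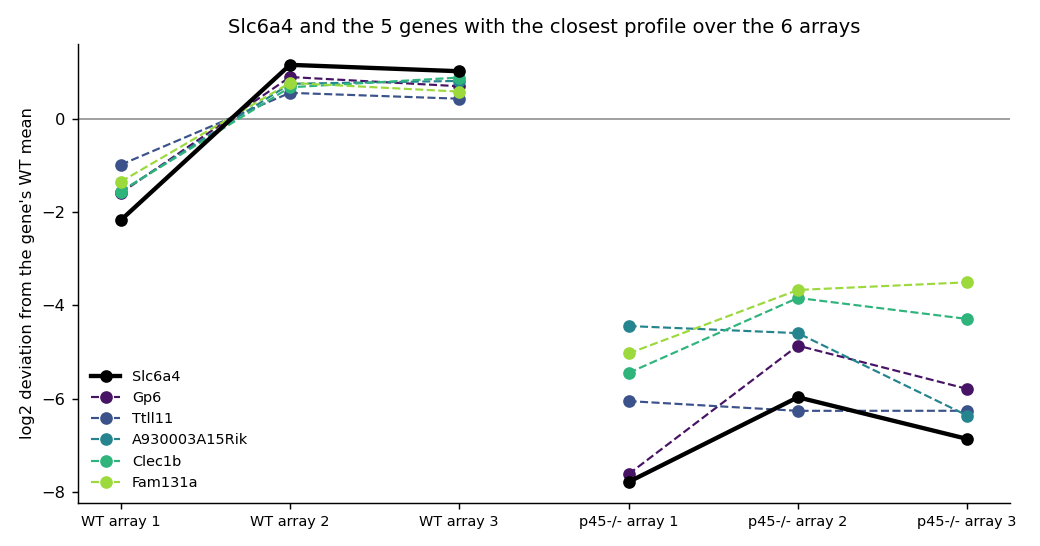
Log2 deviation from the gene's own WT mean on each array, for Slc6a4 in black and the 5 genes with the nearest profile. Lines only join the points of a gene within a group. Slc6a4 and the 5 genes share a low WT array 1 and lie at -3.51 or lower on every p45-/- array.

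For Slc18a2 the nearest were Cited4 at 0.47, Lypd1 at 0.48 and Car5b at 0.50, against a median of 1.68. Each was higher in p45-/-, by 1.26, 1.39 and 1.32. For Maoa they were Eri2 at 0.050, Ttc27 at 0.058 and Rrs1 at 0.058, against a median of 0.54. Near Maob lay Gspt2 at 0.13, Rnf128 at 0.14 and Slc35d1 at 0.14, against 0.75, and near Tph1 lay Pde1c at 0.18, Lefty1 at 0.20 and Hacd1 at 0.21, against 0.88. These lists share no gene with each other, and they describe likeness over 6 arrays that include the low arrays numbered 1. No other serotonin gene was among the nearest genes of the 5 compared. The measure includes the difference between the groups, so a gene near Slc6a4 had to be far lower in p45-/- as well.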

How the data were processed

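Total RNA of 6 cultures was labelled with Cy3 and hybridised to 1 Agilent array each, per the labels' protocols. Per the file headers, the deposited intensity of a spot was extracted with Agilent Feature Extraction 10.7.3.1, background-subtracted and detrended within the array, and left on a linear scale; the submitters' processing notes name 10.1. The series' value table held the same deposited intensity values, with a largest difference of 0.497% and column medians of 20.9 to 42.0, and carries no centring or direction.

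Control spots were left out, 32 to 80 outlier spots per array were set to missing, and no spot was saturated. Spots of a probe were averaged on the log2 scale and the array's 75th percentile over probes was subtracted. This percentile follows earlier processing of these data and was preferred to one over spots after both had been run. Probes had to be well above background throughout 1 of the groups or more, which 23959 of 41174 did. RefSeq accessions gave a symbol for 26690 probes, and 14484 had none. A gene took its probe with the highest mean.

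The comparison used limma 3.58.1 (lmFit, eBayes) under R 4.3.3. Its two-sided p-values were Benjamini-Hochberg adjusted over 18211 genes, with a threshold of 0.05, with 4 residual degrees of freedom, and 2 with the replicate number as a block. An exact permutation test of 3 against 3 arrays cannot go below p = 0.1. Deviations of same-numbered arrays from their group means correlated at 0.647, 0.589 and 0.270, each above 0.1. The deviations within a group cancel out for each gene, so these correlations depend on each other and do not show pairing. On the basis of these correlations same-numbered arrays were still compared as pairs, which no label states. Whether the correlations come from paired cultures, a shared slide or the low arrays numbered 1 was not tested. Slide 1 carried replicate 3 of each group, and slide 2 the rest. The number of arrays limits precision.

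The 6 genes, the 8 pathway and 7 marker lists and the tests were chosen with earlier results of these data known. Named from the lists were genes fixed beforehand in that way, genes without overlap at least 4-fold apart, and the extremes of the marker lists; other genes without overlap were named after their values were seen. Some genes the rule names are left out of the text. Also named were the 5 nearest profiles for Slc6a4 and 3 for each other tested gene. The alternatives tried were a replicate block, a slide block, either slide by itself, normexp with an offset of 50, other scalings and filters, the value table, flagged spots kept, and each array left out. Normexp used the median spot signal. Fits were tested on simulated data.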

Additional observations from a re-analysis of the deposited data

How the results depend on the processing

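Slc6a4 stayed negative under all 22 alternatives, from -7.96 to -5.65, and Slc18a2 positive under all 22, from 0.45 to 2.26. Maoa ranged from -0.23 to 0.49, with 1 negative value, -0.23 with median scaling. Maob ranged from -0.05 to 1.02, negative in 2 of 21 alternatives, and Tph1 from -0.20 to 0.78, negative in 4 of 22. Among the 5 serotonin genes, 1 had groups that did not overlap, against 5 within slide 1, where each group has 1 array, 2 with normexp background correction, 2 with the 75th percentile over probes detected on all arrays and 4 with both replicate 1 arrays left out. Of all genes, 6.08% were then lower and 4.87% higher without overlap with normexp, 5.25% and 9.55% with detected probes, and 21.2% and 34.7% without both replicate 1 arrays. Leaving out 1 array at a time gave 1 to 4, with 4 without p45-/- replicate 1.

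Limma called 0 genes, 5 with the replicate block, 10 with median scaling and 18 with both replicate 1 arrays left out, which became 0 with the replicate block added; leaving out 1 array at a time gave 0 to 1, the 1 without WT replicate 1. Settings chosen after seeing the data changed the blocked count: 1 gene with the percentile over spots, 1590 with median scaling and 0 with quantile normalization, and Slc6a4 was called in the second alone. In the pathway lists 11 of the 92 tested genes were called with median scaling and the replicate block, beside 1590 of all 18211 genes. Under every other setting 0 of the 92 were called. The smallest limma adjusted p with median scaling and the block was 5.4e-43, from 2 residual degrees of freedom. Nothing is read from the calls of that fit. The replicate block left the differences as they were and narrowed the SE of Slc6a4 from 0.96 to 0.46 and that of Slc18a2 from 1.07 to 0.33. Median scaling moved the median of all genes to -0.56, no filter to 0.30 and the percentile over detected probes to 0.15; the share of lower genes, 53.5%, was then 74.8% with median scaling and 36.6% with detected probes. The cause of these changes was not tested. Signal over background limits Htr2a, the dim Tph1 probe and Maob on p45-/- array 1.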
